A study of Homo sapiens with 10 samples.

Results

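The CCR4-NOT and PAN mRNA deadenylases were examined as 10 named genes, CNOT1, CNOT2, CNOT3, CNOT6, CNOT6L, CNOT7, CNOT8, CNOT10, PAN2 and PAN3, chosen from a list of symbols and matched by Ensembl identifier among the 61533 genes of the count tables. They were compared in RNA-seq of the bladder cancer line T24 and of T24R2, its cisplatin-resistant derivative obtained by repeated exposure to the drug, with 5 libraries of each from day 3 of culture. Both lines were grown in RPMI with fetal bovine serum and penicillin/streptomycin. By the methods of the study T24R2 is kept in cisplatin, whereas the labels list the same medium for both lines, so the effect of the line and that of the drug cannot be told apart. T24R2 is 1 derivative of the parental line T24, and the sources do not say whether the 5 libraries of each line came from separate cultures. The p-values therefore measure the spread between libraries, which may be technical. The comparison asks whether the mRNAs of the deadenylation machinery differ between the resistant and the sensitive line. This machinery acts on mRNAs bound by readers of N6-methyladenosine, among others.

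Shortening of the poly(A) tail is the first and often the limiting step in the decay of most mRNAs. PAN2, the nuclease, works with the adaptor PAN3 and trims long tails bound by poly(A)-binding protein, and the CCR4-NOT complex removes the rest. CCR4-NOT is built on the scaffold CNOT1 and holds 1 nuclease of each of 2 kinds at a time: CNOT6 or CNOT6L, of the exonuclease-endonuclease-phosphatase fold, and CNOT7 or CNOT8, of the DEDD fold. CNOT2 and CNOT3 form the NOT module, and CNOT10 and CNOT11 form a module that binds the N-terminal part of CNOT1. Adaptors such as the TNRC6, ZFP36, BTG/TOB, Pumilio and YTHDF2 proteins bring these nucleases to their targets.

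Values are CPM, fragment counts divided by library size and scaled by the TMM factors of edgeR, and differences are log2 fold changes of T24R2 against T24. Libraries held 9257843 to 10840954 counts, and T24R2 replicate 3 stood apart: its counts differed from those of the other T24R2 libraries with a chi-square per degree of freedom of 4.19 to 7.04, against 2.01 to 3.53 among those others and 2.10 to 4.73 among the T24 libraries. Results that rest on it are given with and without it. Of the epithelial markers examined as a check of the labelled cell type, KRT7, KRT8 and KRT18 were abundant in both lines (KRT7 at 1301 CPM or more), KRT19 and GATA3 were at 0.45 CPM or less in T24R2 and reached 278 and 25.01 CPM in T24, and the uroplakins UPK1A, UPK1B and UPK3A were at 0.76 CPM or less in every library. UPK2, a further uroplakin, was at 8.73 to 11.2 CPM in T24 and 1.30 to 3.83 CPM in T24R2, and PPARG was at 73.5 to 78.7 and 22.2 to 30.2 CPM. The leukocyte markers PTPRC, CD68 and CD3E were at 1.63 CPM or less, while the endothelial marker CDH5 was at 219 to 273 CPM in T24 and below 1 CPM in T24R2. PECAM1, the other endothelial marker examined, was at 3.68 to 6.86 CPM in T24 and 0.79 to 1.65 CPM in T24R2. These markers differed with the line, and their part in the results was not tested.

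Most of the deadenylase mRNAs differed little between the lines. In such bulk libraries, fewer cells with an mRNA and less of it per cell cannot be told apart. All 10 passed the filter on low counts, and 1 of them, CNOT10, was called. A call required an adjusted p under 0.05 (edgeR, quasi-likelihood F test, Benjamini-Hochberg over all tested genes) and a log2 fold change of more than 0.5 in either direction. By the same rule 51.4% of the 16181 genes tested were called, 24.9% higher and 26.5% lower in T24R2, and 44.6% of the 6495 genes whose mean CPM lay between those of the lowest and the highest member. With no minimum fold change, 2 members were higher (CNOT6L and CNOT10), 3 were lower (CNOT2, CNOT8 and PAN2) and 5 did not pass, against 75.5% of all tested genes passing, 37.9% higher and 37.6% lower. The 5 libraries of one line lay entirely on one side of the 5 of the other for 3 members (CNOT8, CNOT10 and PAN2), against 61.2% of all tested genes. The median log2 fold change of the members was -0.04 and their median absolute log2 fold change 0.14, beside 0.01 and 0.54 for all tested genes. CNOT10, the member with the largest difference, was exceeded in absolute log2 fold change by 48.8% of the tested genes, CNOT8 by 66.3%, and CNOT6, the member with the smallest, by 96.8%. TMM factors were 0.936 to 0.951 in T24 and 1.04 to 1.07 in T24R2. Without them, on library size alone, the median log2 fold change of all tested genes moved up by 0.16. The sign of CNOT1, CNOT6 and PAN3 turned from negative to positive on library size alone, while CNOT3 and CNOT7 were positive under every scaling. By adjusted p alone, 6 members were then higher (CNOT1, CNOT3, CNOT6, CNOT6L, CNOT7 and CNOT10) and 1 was lower (CNOT8). The shares of all tested genes that passed in each direction under this scaling are not given, so these counts stand without that background.

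**Figure D1:**
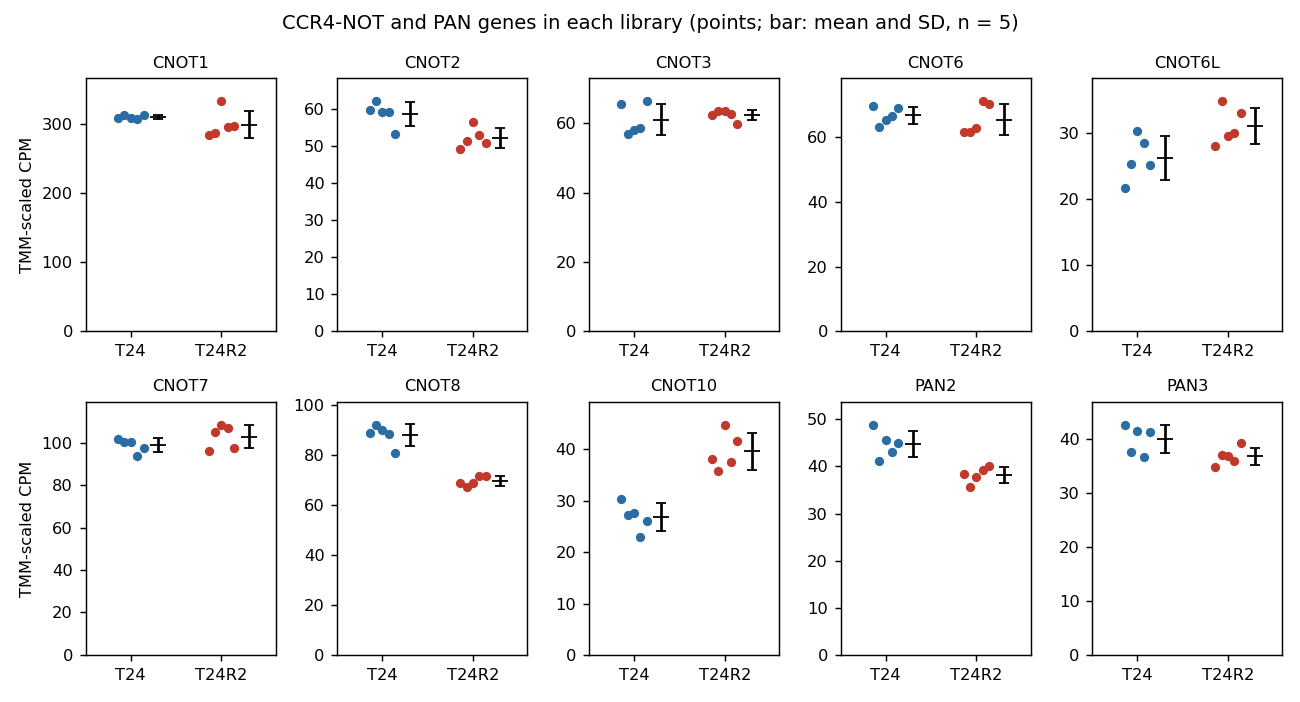
TMM-scaled CPM (vertical axes, from 0, a scale of its own for each gene) of the 10 deadenylase genes in the 5 T24 libraries (blue) and the 5 T24R2 libraries (red), with the mean and SD beside the points. The lines separate for CNOT8, CNOT10 and PAN2, and overlap for the other members.

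CNOT1, the scaffold on which the complex assembles (ENSG00000125107.19, hg38 chromosome 16, 58519951 to 58629885), was the most abundant member. It was at 309, 313, 309, 308 and 313 CPM in the T24 libraries and at 284, 287, 333, 295 and 298 CPM in the T24R2 libraries. The T24 libraries lay close together, and 4 T24R2 libraries lay below all of them while T24R2 replicate 3 lay above all of them. The means were 310 ± 2.51 and 300 ± 19.7 CPM (SD, n = 5 each), and the log2 fold change was -0.05 (SE 0.04, 95% interval -0.14 to 0.04, adjusted p = 0.285). Without T24R2 replicate 3 the log2 fold change was -0.09, with an adjusted p of 0.0459 from edgeR. SETD6, a gene on the opposite strand, overlapped 12.5% of the exon bases of CNOT1 and had 13.4% as many counts, with a log2 fold change of -0.04.

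CNOT2 and CNOT3 pair in the NOT module, which bridges the complex to RNA-bound repressors. CNOT2 (ENSG00000111596.14, chromosome 12, 70243002 to 70354993) was at 59.8, 62.1, 59.3, 59.2 and 53.2 CPM in T24 and at 49.1, 51.5, 56.5, 53.1 and 50.7 CPM in T24R2. Of the T24R2 libraries, 4 lay below every T24 library, and replicate 3 lay within the T24 range. The log2 fold change was -0.17 (SE 0.06, 95% interval -0.29 to -0.05, adjusted p = 0.0123 from edgeR). This difference was -0.01 on library size alone (adjusted p = 0.922) and -0.10 with upper-quartile factors (adjusted p = 0.148). PRANCR, on the opposite strand, had 6.44% as many counts as CNOT2 and a log2 fold change of -0.58. With all PRANCR counts taken off, the log2 fold change of CNOT2 was -0.14 (SE 0.06, adjusted p = 0.0405 from edgeR). CNOT3 (ENSG00000088038.19, chromosome 19, 54137749 to 54155681) was at 65.6, 56.8, 57.9, 58.5 and 66.3 CPM in T24 and at 62.3, 63.6, 63.4, 62.6 and 59.9 CPM in T24R2, so every T24R2 library fell inside the T24 range. Its log2 fold change was 0.03 (SE 0.06, 95% interval -0.09 to 0.15, adjusted p = 0.642). LENG1, on the opposite strand, had 18.05% as many counts as CNOT3 and a log2 fold change of -0.50. LENG1 overlapped 7.64% of the exon bases of CNOT3. With all LENG1 counts taken off, the log2 fold change of CNOT3 was 0.15 (SE 0.07, adjusted p = 0.0538 from edgeR). The share of CNOT2 in the summed counts per kilobase of the pair was 32.001% ± 2.59 in T24 and 29.0% ± 0.977 in T24R2, a difference of -3.03 percentage points that did not pass (exact two-sided permutation test, p = 0.0556, 0.0635 after Benjamini-Hochberg adjustment over 5 such shares).

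CNOT10 was the member that passed both thresholds, and it was higher in T24R2. This subunit has no nuclease activity and forms, with CNOT11, the module on the N-terminal arm of CNOT1. CNOT10 (ENSG00000182973.20, chromosome 3, 32685145 to 32773875) was at 30.4, 27.2, 27.5, 23.0 and 26.0 CPM in the T24 libraries and at 38.2, 35.9, 44.7, 37.5 and 41.7 CPM in the T24R2 libraries. The lowest T24R2 library lay above the highest T24 library. The means were 26.8 ± 2.68 and 39.6 ± 3.56 CPM (SD, n = 5 each), and the log2 fold change was 0.56 (SE 0.08, 95% interval 0.39 to 0.72, adjusted p = 8.1e-08 from edgeR). The exact two-sided permutation test gave p = 0.00794, its lower limit with 5 libraries a side. The 95% interval reached below the minimum of 0.5, and the call was kept without each library in turn, with log2 fold changes of 0.50 to 0.60 (0.52 without T24R2 replicate 3). CNOT10-AS1, an antisense transcript that shares 0.929% of the exon bases of CNOT10, had 11.6% as many counts and a log2 fold change of 0.85 (adjusted p = 0.000407). With its counts taken off, CNOT10 was still called at a log2 fold change of 0.52 (adjusted p = 1.0e-06).

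CNOT11, the partner of CNOT10 and not itself a member, was also called higher. CNOT11 (ENSG00000158435.8, chromosome 2, 101252886 to 101270316) was at 46.2, 52.1, 49.7, 46.8 and 48.1 CPM in T24 and at 78.4, 77.6, 83.1, 76.7 and 73.8 CPM in T24R2. Its libraries did not overlap, and its log2 fold change was 0.68 (SE 0.06, adjusted p = 1.4e-13 from edgeR). No gene on the opposite strand overlapped its exons. Because these subunits share a module and moved in the same direction, the 250 bases before the first annotated base of each gene are shown, read from hg38 on the plus strand. Capitals mark matches, on either strand, to the GC box GGGCGG, the CCAAT box CCAAT, the TATA box TATAAA and the ETS core CCGGAA, and none of the marked matches overlap.
CNOT10, chr3:32684895-32685144, plus strand: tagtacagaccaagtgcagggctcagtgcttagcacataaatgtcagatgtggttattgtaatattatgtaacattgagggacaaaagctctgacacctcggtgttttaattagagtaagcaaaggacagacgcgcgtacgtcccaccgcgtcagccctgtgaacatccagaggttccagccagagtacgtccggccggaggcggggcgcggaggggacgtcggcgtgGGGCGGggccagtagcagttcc
CNOT11, chr2:101252636-101252885, plus strand: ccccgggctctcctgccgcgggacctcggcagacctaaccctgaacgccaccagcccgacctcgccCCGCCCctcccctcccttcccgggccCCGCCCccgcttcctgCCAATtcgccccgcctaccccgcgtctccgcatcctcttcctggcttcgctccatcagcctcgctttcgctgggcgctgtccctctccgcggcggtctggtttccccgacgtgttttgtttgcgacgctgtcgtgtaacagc
The CNOT10 window held 1 GC box, and the CNOT11 window held 2 GC boxes and 1 CCAAT box, while neither held the TATA or the ETS letters. Among 16150 windows of the same length before tested genes, 52.9% held a GC box, 32.5% a CCAAT box, 7.39% a TATA box and 18.0% an ETS core. The CNOT10 window was 55.2% G and C and the CNOT11 window 70.0%, on either side of the median of 61.2% over all windows. The letters shared by the pair were therefore the GC box, which more than 1 in 2 of all windows also held.

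**Figure D2:**
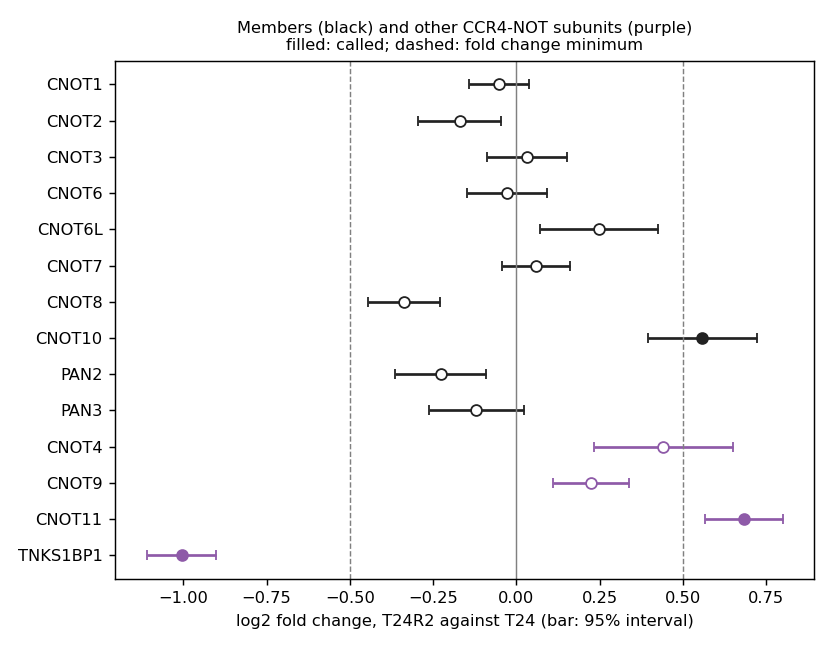
Log2 fold changes of T24R2 against T24 with 95% intervals (horizontal axis) for the 10 members (black) and the 4 other CCR4-NOT subunits (purple), with filled points for called genes and dashed lines at the minimum of 0.5 in each direction. CNOT10 and CNOT11 lie to the right of the upper line and TNKS1BP1, at -1.01, to the left of the lower one, while the other members lie between the lines.

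The nucleases of the exonuclease-endonuclease-phosphatase fold, CNOT6 and CNOT6L, replace each other in the complex. CNOT6 (ENSG00000113300.13, chromosome 5, 180494379 to 180578358) was at 69.7, 63.1, 65.2, 66.6 and 69.1 CPM in T24 and at 61.6, 61.5, 62.9, 71.1 and 70.4 CPM in T24R2. The T24R2 libraries lay on both sides of the T24 range, with a log2 fold change of -0.03 (SE 0.06, 95% interval -0.15 to 0.09, adjusted p = 0.676). CNOT6L (ENSG00000138767.14, chromosome 4, 77713387 to 77819615), the less abundant of the pair, was at 21.7, 25.4, 30.4, 28.6 and 25.2 CPM in T24 and at 28.1, 34.8, 29.6, 30.1 and 33.0 CPM in T24R2. The ranges overlapped, with 2 T24R2 libraries above every T24 library. The log2 fold change of CNOT6L was 0.25 (SE 0.09, 95% interval 0.07 to 0.43, adjusted p = 0.0105 from edgeR), and the exact permutation test did not pass (p = 0.0556). Without T24 replicate 1, the lowest library, the log2 fold change was 0.18 and the adjusted p 0.0633 by edgeR. CNOT6 made up 78.4% ± 2.60 of the pair per kilobase in T24 and 74.9% ± 2.05 in T24R2 (exact permutation test, p = 0.0556, adjusted p = 0.0635).

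The nucleases of the DEDD fold, CNOT7 and CNOT8, also replace each other, and here the balance of the mRNAs differed between the lines. CNOT7 (ENSG00000198791.12, chromosome 8, 17224966 to 17246878) was at 102, 100, 101, 93.7 and 97.4 CPM in T24 and at 96.3, 105, 108, 107 and 97.5 CPM in T24R2, with overlapping ranges and a log2 fold change of 0.06 (SE 0.05, 95% interval -0.04 to 0.16, adjusted p = 0.295). A gene without a symbol on the opposite strand overlapped 18.8% of the exon bases of CNOT7. It had 3.34% as many counts and a log2 fold change of 0.87. With its counts taken off, the log2 fold change of CNOT7 was 0.03. CNOT8 (ENSG00000155508.14, chromosome 5, 154857553 to 154876792) was at 88.6, 91.9, 90.2, 88.4 and 80.8 CPM in T24 and at 68.8, 67.2, 68.8, 71.5 and 71.8 CPM in T24R2. The highest T24R2 library lay below the lowest T24 library. The log2 fold change of CNOT8 was -0.34 (SE 0.05, 95% interval -0.45 to -0.23, adjusted p = 4.3e-07 from edgeR; exact permutation test, p = 0.00794), short of the minimum of 0.5 for a call. It was -0.17 on library size alone (adjusted p = 0.00321). FAXDC2, on the opposite strand, had 12.8% as many counts as CNOT8, and with its counts taken off the log2 fold change of CNOT8 was again -0.34.

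The share of CNOT7 in the counts per kilobase of CNOT7 and CNOT8, a measure that does not depend on the scaling between libraries, was 29.2%, 28.2%, 28.6%, 27.6% and 30.2% in T24 and 33.5%, 36.0%, 36.1%, 35.0% and 32.8% in T24R2. Every T24R2 library lay above every T24 library. The mean share was 28.8% ± 1.02 and 34.7% ± 1.49 (SD, n = 5 each), a difference of 5.91 percentage points (exact two-sided permutation test, p = 0.00794, adjusted p = 0.0198 over 5 shares). The difference was 5.54 points without T24R2 replicate 3. The level of these shares rests on the exon lengths, 10941 bases for CNOT7 and 3929 for CNOT8. By mean CPM, CNOT7 was the more abundant, at 98.8 against 88.0 in T24 and 103 against 69.6 in T24R2. Among all 4 nucleases of CCR4-NOT, CNOT6 and CNOT6L together made up 29.2% ± 1.29 per kilobase in T24 and 32.9% ± 1.09 in T24R2, a difference of 3.64 points (exact permutation test, p = 0.00794, adjusted p = 0.0198). Its ranges, 27.4% to 31.0% and 31.7% to 34.4%, did not overlap. In shares of counts not divided by exon length the ranges did overlap. CNOT8 enters this share too, so it is not independent of the share of CNOT7. Singly, the libraries of the lines did not overlap in CPM for 61.2% of all tested genes. Shares of gene pairs outside the members were not computed, so how often such a share separates the lines was not tested. The alternative subunits were distinct enough to be counted apart: the coding sequences of CNOT7 and CNOT8 were 69.9% identical and those of CNOT6 and CNOT6L 72.5%, with no shared run longer than 20 bases in either pair. The pseudogene copies CNOT7P1, CNOT7P2 and CNOT6LP1 had 4 counts or fewer in every library.

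**Figure D3:**
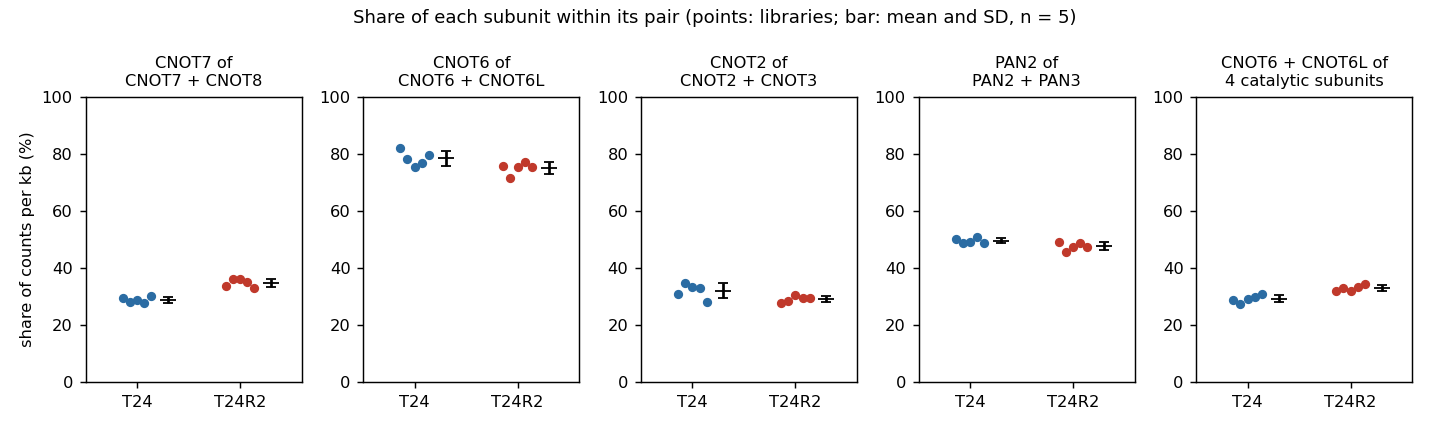
Share of the counts per kilobase of exon (vertical axes, percent, 0 to 100) taken by the first subunit or subunits of each set, in each T24 (blue) and T24R2 (red) library, with the mean and SD beside the points. The share of CNOT7 and the joint share of CNOT6 and CNOT6L separate the lines, and the other shares overlap.

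PAN2 and PAN3 were measured at similar levels. PAN2 (ENSG00000135473.16, chromosome 12, 56316223 to 56334053), the nuclease, was at 48.8, 41.2, 45.7, 43.1 and 44.9 CPM in T24 and at 38.4, 35.7, 37.7, 39.2 and 40.1 CPM in T24R2. Every T24R2 library lay below every T24 library. The log2 fold change was -0.23 (SE 0.07, 95% interval -0.36 to -0.09, adjusted p = 0.00282 from edgeR; exact permutation test, p = 0.00794), and -0.06 on library size alone (adjusted p = 0.389). CNPY2-AS1, on the opposite strand, overlapped 19.5% of the exon bases of PAN2 and had 126% as many counts, at 56.9 ± 2.82 CPM in T24 and 47.4 ± 4.14 CPM in T24R2 (log2 fold change -0.27, adjusted p = 0.000417 by edgeR). Since CNPY2-AS1 had more counts than PAN2 and the library kit is not described as strand-specific, reads of the pair cannot be told apart and its counts could not be taken off. PAN3 (ENSG00000152520.14, chromosome 13, 28138506 to 28295335), the adaptor that carries PAN2 to RNA, was at 42.6, 37.7, 41.5, 36.7 and 41.3 CPM in T24 and at 34.9, 37.0, 36.9, 35.8 and 39.2 CPM in T24R2, with overlapping ranges and no overlapping gene. Its log2 fold change was -0.12 (SE 0.07, 95% interval -0.26 to 0.02, adjusted p = 0.119). PAN2 made up 49.4% ± 0.836 of the counts per kilobase of the pair in T24 and 47.6% ± 1.38 in T24R2 (exact permutation test, p = 0.0635, which is also the adjusted p).

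Compared per kilobase of exon, the levels of the members kept nearly the same order in both lines. In T24, CNOT1 was highest at 28.6 CPM per kilobase, followed by CNOT8 at 22.4, CNOT6 at 10.2, CNOT7 at 9.03, CNOT3 at 8.95, PAN3 at 6.29, PAN2 at 6.15, CNOT10 at 5.54, CNOT2 at 4.20 and CNOT6L at 2.81. The libraries of CNOT7 and CNOT3, of PAN3 and PAN2, and of PAN2 and CNOT10 overlapped, and other neighbours in this order did not. In T24R2, CNOT1 was at 27.6 CPM per kilobase, CNOT8 at 17.7, CNOT6 at 9.97, CNOT7 at 9.41, CNOT3 at 9.15, CNOT10 at 8.17, PAN3 at 5.79, PAN2 at 5.25, CNOT2 at 3.73 and CNOT6L at 3.33. The change of place was that of CNOT10, which stood below PAN3 and PAN2 in T24 and above both in T24R2. In T24R2 the libraries of CNOT6 and CNOT7, of CNOT7 and CNOT3, of CNOT3 and CNOT10, of PAN3 and PAN2, and of CNOT2 and CNOT6L overlapped. Lengths are those of all annotated exons of a gene, so a gene that uses a short isoform has its level understated.

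Of the 4 other subunits of CCR4-NOT, CNOT11 was called higher (values above) and TNKS1BP1 lower, a share of 50.0% beside 51.4% of all tested genes. TNKS1BP1, which binds tankyrase as well as the complex, was at 226 to 234 CPM in T24 and at 98.5 to 127 CPM in T24R2, a log2 fold change of -1.01 (SE 0.05, adjusted p = 2.1e-20 from edgeR). CNOT9, which binds tryptophan-containing motifs of recruiting proteins such as TNRC6, had a log2 fold change of 0.23 (SE 0.06, adjusted p = 4.9e-04). CNOT4, a ubiquitin ligase loosely bound to the complex in human cells, had a log2 fold change of 0.44 (SE 0.10, adjusted p = 2.3e-04). The libraries of the lines did not overlap for any of the 4, as was so for 61.2% of all tested genes. The count called higher was 2 on library size alone and with upper-quartile factors, and 2 without T24R2 replicate 1. The shares of all tested genes called under these settings are not given.

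Of 7 genes listed as deadenylases outside these complexes, 6 were tested and 4 were called, all of them higher in T24R2. This was 66.7%, against 51.4% of all tested genes called and 24.9% called higher. The median log2 fold change over the 6 was 1.09. PARN, a nuclease that trims the tails of small nuclear and nucleolar RNAs and of some mRNAs, was at 23.7, 28.8, 27.5, 27.3 and 25.1 CPM in T24 and at 49.2, 55.4, 67.8, 51.9 and 53.7 CPM in T24R2, a log2 fold change of 1.07 (SE 0.08, adjusted p = 3.2e-15 from edgeR). ANGEL2, a relative of CNOT6 in the same protein family, had a log2 fold change of 1.27 (SE 0.08) and NOCT, the circadian protein nocturnin of that family, of 1.11 (SE 0.13). Whether each listed protein removes poly(A) tails was not tested. TOE1, which matures the ends of small nuclear RNAs, had a log2 fold change of 1.29 (SE 0.11), with 24.7% of its exon bases overlapped from the opposite strand. PDE12, a mitochondrial deadenylase, at 0.42, and ANGEL1, at 0.13, were not called, and PNLDC1 had 7 counts or fewer in every library and was not tested.

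Of 24 listed genes that bring deadenylases to mRNA, 21 were tested, 4 were called higher and 5 lower, and their median log2 fold change was 0.03. The share called, 42.9%, stood beside 51.4% of all tested genes. The higher ones were SAMD4B (0.53), a Smaug-type RNA-binding protein, EIF4ENIF1 (0.56), the eIF4E-binding transporter of processing bodies, TOB1 (0.67), an antiproliferative protein that binds CNOT7 and CNOT8, and RC3H1 (0.98), the stem-loop-binding protein roquin. Among the lower ones, BTG1, which also binds CNOT7 and CNOT8, was at 73.2 ± 3.05 CPM in T24 and 29.9 ± 2.47 CPM in T24R2 (log2 fold change -1.29, SE 0.07, adjusted p = 1.6e-20 from edgeR). BICC1, an RNA-binding protein with KH domains, was at 88.3 ± 3.41 and 11.1 ± 1.95 CPM (log2 fold change -2.99, SE 0.08). The remaining 3 called lower, BTG3, NANOS1 and BTG2, had lower mean levels and were named in addition to the 6 most abundant called genes after their values were seen, with log2 fold changes of -3.68, -2.92 and -1.88. YTHDF2, the reader of N6-methyladenosine that binds CNOT1, had a log2 fold change of 0.19 (SE 0.06, adjusted p = 0.00304 from edgeR). It was short of the minimum of 0.5 and not called, and 24.7% of its exon bases were overlapped from the opposite strand. YTHDF2 too was named after its value was seen.

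Of 18 genes of decapping and 5′ to 3′ decay, steps that follow deadenylation, 3 were called higher and 3 lower (33.3%, against 51.4% of all tested genes), with a median log2 fold change of 0.07. EDC3 (0.81), an enhancer of decapping, DCP1B (0.79), a decapping cofactor, and LSM5 (0.52), part of the LSM ring on deadenylated ends, were higher. DDX6 (-0.60), the helicase that CNOT1 binds, DCP2 (-0.79), the decapping enzyme, and DCPS (-1.11), the scavenger of cap remnants, were lower. Of 17 genes of the exosome and the SKI complex, which degrade mRNA from the 3′ end, 4 were called higher and 2 lower (35.3%), with a median log2 fold change of 0.01. The higher ones were SKIC8 (1.47), a SKI subunit, the nucleases DIS3L (1.29) and DIS3L2 (0.86), the latter of which works without the exosome, and EXOSC5 (0.73), a subunit of the exosome ring. The lower ones were EXOSC1 (-0.85), of the exosome cap, and EXOSC8 (-0.71), of the ring, which is overlapped on the opposite strand over 16.3% of its exon bases.

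Of 17 genes that make or bind poly(A) tails, 15 were tested, 2 were called higher and 0 lower (13.3%, against 51.4% of all tested genes). By the adjusted p of edgeR alone, 9 were higher and 1 lower, against 37.9% and 37.6% of all tested genes. The called genes were TENT2 (1.21), a cytoplasmic poly(A) polymerase, and PAIP1 (0.60), a partner of poly(A)-binding protein. The median log2 fold change was 0.27. The count called higher was 5 on library size alone, where the median log2 fold change of all tested genes was 0.18. Across these lists and the other CCR4-NOT subunits, 18 genes were called higher and 11 lower. The lists held 4, 6, 21, 18, 17 and 15 tested genes. Of all tested genes, 24.9% were called higher and 26.5% lower. The share called was above 51.4% for the genes listed as deadenylases outside the complexes and below it in every other list.

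**Figure D4:**
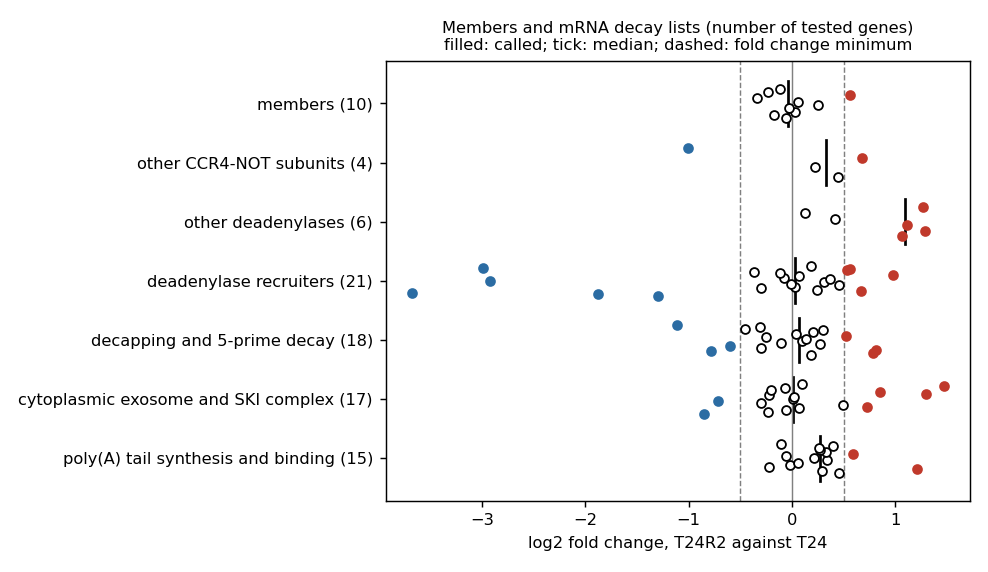
Log2 fold changes of T24R2 against T24 (horizontal axis) for the tested genes of the members and of each mRNA decay list, with filled red points for genes called higher, filled blue points for genes called lower, a tick at each median and dashed lines at the minimum of 0.5. The members lie between -0.34 and 0.56, and the recruiters reach from -3.68 to 0.98.

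Because whole chromosome regions can differ between a line and its derivative, each member was set beside the other tested genes within 5 Mb on each side. CNOT10 at 0.56 lay close to the median of its 36 neighbours, 0.49. With a 2 Mb window that median was 0.22. CNOT8, at -0.34, lay on the other side of 0 from its 44 neighbours, whose median was 0.23, and CNOT6L, at 0.25, from its 48 neighbours, whose median was -0.64. PAN2 at -0.23 lay near the median of its 149 neighbours, -0.30. CNOT2 and PAN3 lay above the medians of their neighbourhoods, which were -0.47 (43 genes) and -0.58 (38 genes). Between 39.2% and 79.2% of the genes in these 10 neighbourhoods were called, beside 51.4% of all tested genes. The other 4 neighbourhood medians were -0.03 for CNOT1, 0.14 for CNOT3, 0.28 for CNOT6 and 0.15 for CNOT7. CNOT1, at -0.05, lay closest to its median of all members. CNOT6, at -0.03, was also on the other side of 0 from its median. Copy number was not measured, and its part in these differences was not tested.

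**Figure D5:**
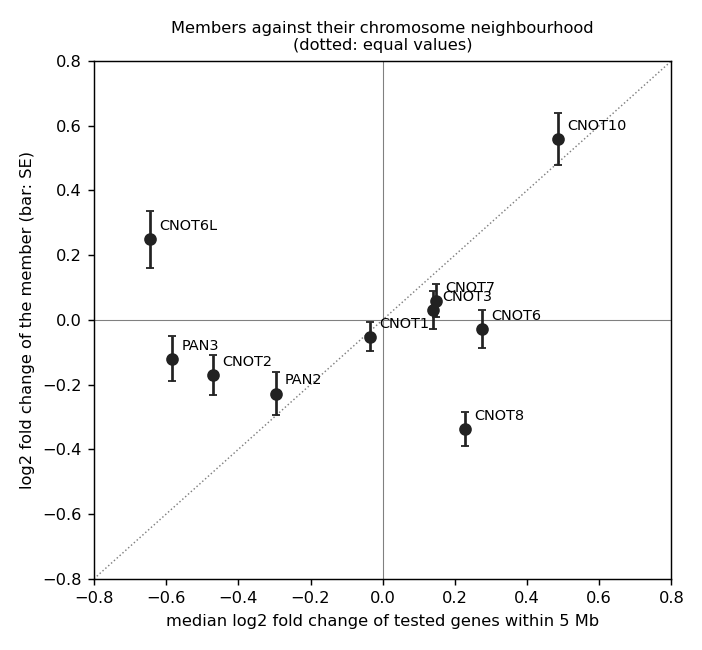
Log2 fold change of each member (vertical axis, bar for the SE) against the median log2 fold change of the other tested genes within 5 Mb of it (horizontal axis), with equal values on the dotted line. CNOT1, CNOT10 and PAN2 lie nearest the line. CNOT8, CNOT6L and CNOT6, the last close to 0, lie in quadrants where the member and its neighbourhood have opposite signs.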

How the data were processed

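RNA-seq of 10 libraries was analysed. Per the file headers and the methods of the study, the authors mapped reads with STAR 2.7.0 (hg38), filtered them for unique mapping and against duplicates with SAMtools 1.10, and made the deposited raw counts of fragments per GENCODE 39 gene with featureCounts 2.0.1 on strand option 1. The RNA-seq kit is not described as strand-specific, so reads of genes that overlap on opposite strands cannot be separated. No row lacked a gene identifier (0 rows).

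Counts were filtered (filterByExpr), TMM-scaled and tested in edgeR 4.0.16 (R 4.3.3) with Benjamini-Hochberg adjustment over 16181 genes. A call required an adjusted p under 0.05 and a log2 fold change beyond 0.5 in either direction. DESeq2 1.42.0 and limma 3.58.1 were alternatives, beside other scalings, filters and libraries left out. Permutation tests were exact and two-sided (SciPy 1.17.1), and intervals cover the model's error at 95%. Overlaps came from bedtools 2.31.1, and promoter windows from hg38. Coding sequences came from GENCODE transcripts. The tests were tested on simulated data.

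The members and lists were chosen with earlier results of these data known. Named were all members, the other CCR4-NOT subunits, at most 6 called genes a list by the highest mean CPM, opposite-strand genes with more than 10% of a member's counts, and libraries far from their group. Outside this rule, the genes opposite CNOT7 (3.34% as many counts) and CNOT2 (6.44%) were described too. Taking off opposite-strand counts from the fold changes, and counting by adjusted p alone under each scaling, were added after the data were seen. Every count of the opposite-strand gene was taken off, not those in the overlap alone. Named after their values were seen were BTG2, BTG3, NANOS1, YTHDF2, PDE12, ANGEL1, PNLDC1 and PRANCR.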

Additional observations from a re-analysis of the deposited data

Results flagged for a closer look

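One value stood far from the rest of its group. CNOT1 was at 333 CPM in T24R2 replicate 3, while the other 4 T24R2 libraries were at 284 to 298 CPM, a gap of 0.713 of the range of the group. Of 20 groups compared, a member in a line each, 1 was marked in this way, and chance gives about 1 in 20.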

How the results depend on the processing

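The count of members called, 1 higher and 0 lower, was the same under every scaling, filter, test and library left out that kept the minimum fold change. With no minimum it was 2 higher and 3 lower. The lists, with 4, 6, 21, 18, 17 and 15 tested genes, then had 38 higher and 22 lower in place of 18 and 11. By that rule 37.9% of all tested genes were higher and 37.6% lower. On library size alone the log2 fold changes of CNOT1, CNOT6 and PAN3 turned to 0.11, 0.14 and 0.044, CNOT2 (-0.0069) and PAN2 (-0.064) no longer passed, and CNOT3 (0.19) and CNOT7 (0.22) passed, as did CNOT1 and CNOT6 in the turned direction (adjusted p = 0.0179 and 0.0374 from edgeR), which made 6 members higher and 1 lower by adjusted p alone, against 2 and 3 with TMM. With upper-quartile factors CNOT1 (0.021) and CNOT6 (0.046) turned, CNOT2 (-0.10) no longer passed and CNOT7 (0.13) passed, which made 3 higher and 2 lower. The shares of all tested genes passing by either rule under these other scalings are not given. Their median log2 fold change was 0.18 on library size alone and 0.09 with upper-quartile factors, against 0.01 with TMM. With a mean of at least 100 counts, CNOT6 was at 0.0023. The cause of these moves other than the scaling was not tested. On library size alone the neighbourhood medians were 0.13 (CNOT1), -0.31 (CNOT2), 0.30 (CNOT3), 0.44 (CNOT6), -0.48 (CNOT6L), 0.31 (CNOT7), 0.39 (CNOT8), 0.65 (CNOT10), -0.13 (PAN2) and -0.42 (PAN3), and with 2 Mb windows 0.041 (CNOT3), 0.23 (CNOT6), -0.51 (CNOT6L), 0.048 (CNOT7), 0.27 (CNOT8), 0.22 (CNOT10) and -0.67 (PAN3). With all counts of the opposite-strand genes taken off, the difference in the share of CNOT2 was -4.65 points (exact permutation test, unadjusted p = 0.0476). This took off counts outside the shared bases too. The LENG1 counts taken from CNOT3 were 21.7% of its own in T24 and 15.0% in T24R2. The PRANCR counts taken from CNOT2 were 7.37% and 5.55%.

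Leaving out each library in turn gave log2 fold changes of -0.088 to -0.029 for CNOT1, -0.055 to 0.00089 for CNOT6 and 0.18 to 0.30 for CNOT6L, and differences in share of -4.18 to -2.50 points for CNOT6, -3.996 to -2.34 for CNOT2 and -2.23 to -1.40 for PAN2. The unadjusted exact p of the share of CNOT6 passed without T24 replicate 3, T24 replicate 4 or T24R2 replicate 4, that of CNOT2 without T24 replicate 5, and that of PAN2 without T24R2 replicate 1.

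The replicate numbers, shared by both lines, did not pair the libraries: deviations of same-numbered libraries correlated at -0.021 to 0.016, and 1 of 5 libraries matched its own number best. With the number as a replicate block, edgeR called 1 member higher and 0 lower (CNOT10 at 0.56), and no call of a member changed. In the exact sign-flip test of numbered pairs, whose smallest p is 0.0625, the shares of CNOT7 (5.91 points) and of CNOT6 with CNOT6L (3.64 points) had p = 0.0625.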
